A study of Mus musculus with 18 samples.

Results

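The genes of major histocompatibility complex (MHC) class II antigen presentation were followed by symbol in the expression tables of bone marrow LSK cells and common myeloid progenitors (CMPs). There were 10 members: H2-Aa, H2-Ab1, H2-Eb1, H2-DMa, H2-DMb1, H2-DMb2, H2-Oa, H2-Ob, Cd74 and Ciita. All 10 were found among 19780 genes of the LSK table and among 18428 genes of the CMP table. The animals were female NZBW/F1 mice, the first-generation hybrids of NZB and NZW that develop lupus without treatment, and female wild-type C57BL/6 mice. The F1 groups were F1-P, which had no disease at 12 weeks, and F1-L, which had lupus with proteinuria at 28 to 36 weeks. The C57BL/6 groups were B6-Y at 12 weeks and B6-O at 28 to 36 weeks. LSK cells were profiled in all 4 groups and CMPs in F1-P and F1-L, with 3 samples in each of the 6 groups. No group carried a transgene, a deletion made for the study or a treatment. Each CMP replicate is described as made of several units, which are not named, and for LSK the sources do not say whether animals were pooled. Since nothing says that replicates came from separate animals, p-values measure the spread between these samples. Disease, age and strain are tied together in this design: F1-L differed from F1-P in age as well as disease, and F1 differed from C57BL/6 across the whole genome.

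Class II molecules are pairs of an α and a β chain that carry peptides from the endosome to the cell surface for CD4 T cells. In the mouse the I-A molecule is made by H2-Aa and H2-Ab1, and the I-E molecule by the α chain of the H2-Ea locus with the β chain of H2-Eb1. Cd74 encodes the invariant chain, which fills the groove of new class II molecules and guides them to the endosome. H2-DM, made of H2-DMa with H2-DMb1 or H2-DMb2, exchanges the remaining invariant chain peptide for others, and H2-DO, made of H2-Oa and H2-Ob, holds H2-DM back. Ciita is the transactivator that assembles on class II promoters through the proteins bound at the X and Y boxes, and interferon gamma is its best known inducer. B cells, dendritic cells and macrophages are the classical class II cells, and plasma cells are known for switching Ciita off. The inbred strains differ at this locus. C57BL/6 carries the b haplotype, whose H2-Ea promoter is deleted so that I-E is not made, NZB carries the d haplotype and NZW the z haplotype.

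Of the members, 8 lie on chromosome 17 of the mm10 (GRCm38) build, between H2-Oa, which starts at 34092340, and the H2-Ea locus, annotated H2-Ea-ps, which ends at 34344645. Cd74 and Ciita lie on other chromosomes, outside this polymorphic block. Reads were aligned to the C57BL/6 reference. For the genes of the block, a difference in RNA between strains and a difference in how reads of another haplotype align cannot be told apart.

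The windows below show the part of the promoter that holds the letters searched for the Y box, in the region through which Ciita acts. In 4 of the 6 they also hold those searched for the X box. A search for fixed letters does not show that an X box is absent from a window without them. RefSeq promoters of the GRCm38.p6 build, 250 bases before to 50 after the start, were matched for 7 of the 10 members. Each window is 61 bases long on the coding strand, and capitals mark the letters searched for the X box, which are AAC, any 2 bases and ATGATG, and those searched for the Y box, GATTGG. The windows are chr17:34305762-34305822 (plus strand) for H2-Eb1, chr17:34153084-34153144 (plus) for H2-DMb1, chr17:34145113-34145173 (plus) for H2-DMb2, chr17:34238802-34238862 (plus) for H2-Ob, chr17:34287857-34287917 (minus) for H2-Aa and chr17:34092290-34092350 (plus) for H2-Oa.
H2-Eb1: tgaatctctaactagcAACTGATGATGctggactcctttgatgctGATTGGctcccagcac
H2-DMb1: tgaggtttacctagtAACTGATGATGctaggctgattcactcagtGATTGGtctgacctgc
H2-DMb2: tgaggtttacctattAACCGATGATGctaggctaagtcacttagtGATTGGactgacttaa
H2-Ob: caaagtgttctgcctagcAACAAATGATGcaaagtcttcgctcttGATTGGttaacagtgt
H2-Aa: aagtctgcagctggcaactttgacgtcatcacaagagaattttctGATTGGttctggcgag
H2-Oa: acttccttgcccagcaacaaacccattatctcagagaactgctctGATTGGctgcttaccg

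Both sets of letters were searched on both strands and were chosen by reading these promoters, so their presence here is a description. The Y box letters were in a window of all 7 matched members and in 16.1% of 32851 promoters. The X box letters were in 4 of the 7 members, H2-Eb1, H2-DMb1, H2-DMb2 and H2-Ob, and in 0.137% of all promoters. With the Y box beginning 10 to 40 bases after the X box on the same strand, the pair was found in 4 of the 32851 promoters, which were those 4 members. The distance was 29 bases in H2-Eb1, 30 in H2-DMb1 and H2-DMb2, and 27 in H2-Ob. H2-DMb1 and H2-DMb2 were identical at 52 of the 61 bases. These 2 genes are near copies, and how the authors' counting split reads between them is uncertain.

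The libraries held 23772252 to 28493747 reads in genes for LSK and 20001328 to 24761060 for CMP. Immunoglobulin genes took 19.2 to 36.6% of these reads in F1-P LSK and 16.8 to 25.6% in F1-L. In B6-Y they took 0.918 to 2.86% and in B6-O 0.301 to 4.76%, so fewer reads were left for other genes in F1 LSK. Values are CPM as deposited, the reads of a gene scaled to library size by the authors within each table, and 1 read was worth 0.0310 to 0.0584 CPM in LSK and 0.0392 to 0.0516 CPM in CMP. A count of 0 allows up to 3 reads, or 0.0930 to 0.175 CPM in LSK, for counting error only. The LSK and CMP tables were normalised separately, so levels in the 2 tables are set side by side without a test. In these bulk samples, fewer cells of a type and less RNA per cell cannot be told apart.

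The sort markers were checked first. Kit, encoding c-Kit, was at 257 to 657 CPM in LSK and 416 to 668 CPM in CMP. Ly6a, encoding Sca-1, was at 35.5 to 879 CPM in LSK and 1.14 to 6.70 CPM in CMP. Sca-1 is named as positive in both gates. Markers of mature class II cells and of other mature cells were present beside them. Of 8 plasma cell markers, none was at 0 reads in any LSK sample, and the most abundant was Jchain, the joining chain of secreted antibody. Their sum was 14635, 37905 and 33992 CPM in the F1-P LSK samples and 9742, 9842 and 13036 CPM in F1-L. It was 788, 1987 and 1886 CPM in B6-Y and 396, 253 and 2529 CPM in B6-O. Every F1 LSK sample was thus above every C57BL/6 sample. The sort gate excluded cells with CD11b, Gr-1, Ter119, B220 or CD16/32, which should remove neutrophils, monocytes and B cells, and named no plasma cell or T cell marker.

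Several libraries stood apart within their group. B6-O replicate 3 had a plasma cell marker sum of 2529 CPM and a neutrophil marker sum of 10057 CPM, led by S100a9, against 1617 and 773 CPM for neutrophil markers in B6-O replicates 1 and 2. In LSK, B6-Y replicate 2 had a neutrophil marker sum of 5083 CPM against 467 and 455 CPM in the other B6-Y samples, and F1-L replicate 1 one of 11426 CPM against 4562 and 1797 CPM. In CMPs, F1-P replicates 2 and 3 had neutrophil marker sums of 5979 and 7833 CPM, against 289 CPM in F1-P replicate 1 and 58.4 to 398 CPM in F1-L. Their B cell marker sums, led by Cd37, were 306 and 355 CPM, against 121 CPM in F1-P replicate 1 and 78.7 to 120 CPM in F1-L. Their sums of monocyte and macrophage markers, led by Lyz2, were 1282 and 1754 CPM, against 191 CPM in F1-P replicate 1. In the plot of marker sums, B6-O replicate 3 and CMP F1-P replicates 2 and 3 also carried the highest classical class II sums of their groups. Of the B cell, plasma cell, T cell, conventional and plasmacytoid dendritic cell, monocyte and macrophage, and neutrophil lists, no gene was at 0 reads in any LSK sample. In CMP, Klk1 was at 0 reads in all 3 F1-L samples, Cd209a in F1-L replicates 1 and 2, Trac in replicate 2 and Tnfrsf17 in replicate 3. Without B6-Y replicate 2 the same 5 members were called in F1-P against B6-Y as with it, beside 2038 of 14011 genes in place of 2331 of 14380. Without F1-L replicate 1 the members called in F1-L against B6-O were 2 in place of 3, H2-DMa being lost. Over all genes the calls there fell to 582 of 13879 from 1667 of 14381. For the main results that rest on the other libraries named, values without them or ranges over fits that left out 1 sample are given.

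**Figure D1:**
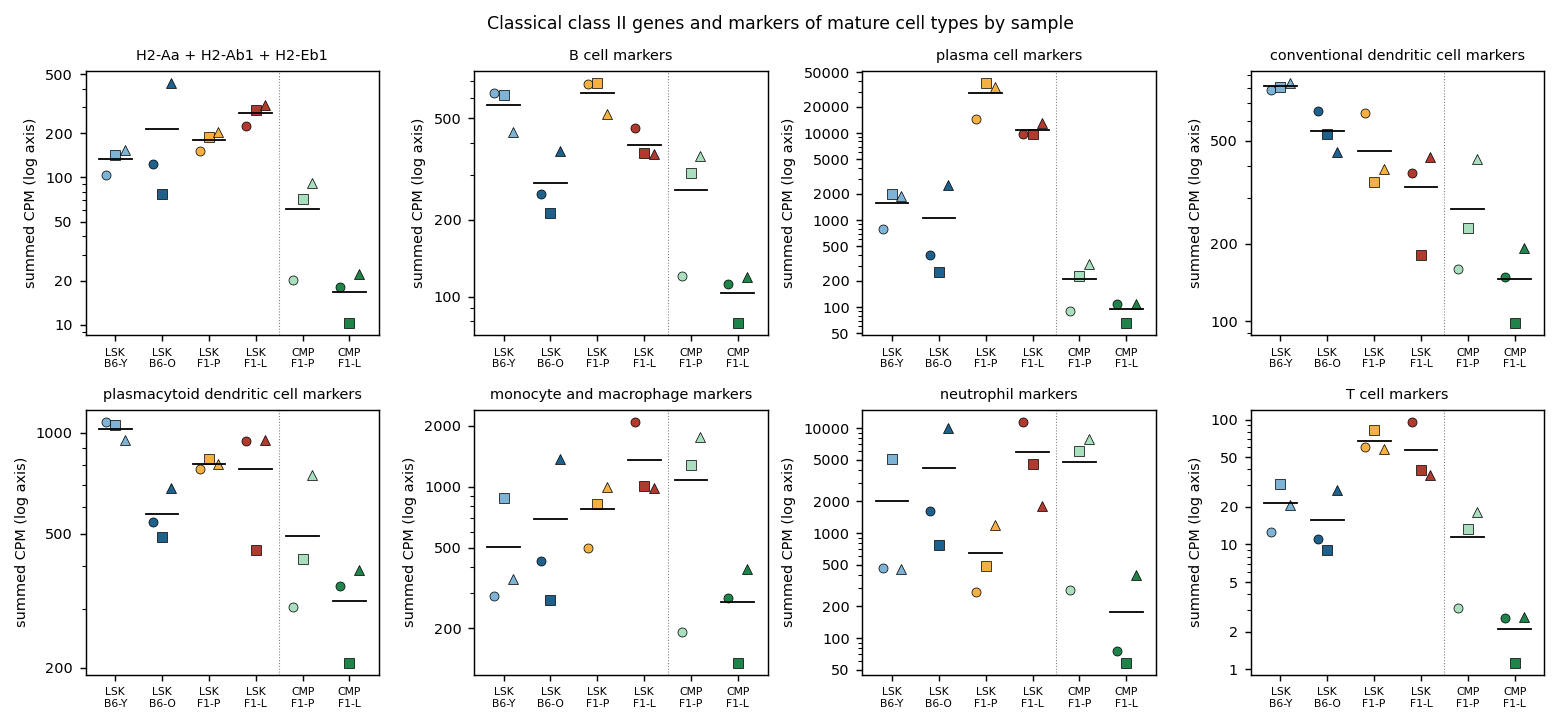
Summed CPM on a log axis for H2-Aa, H2-Ab1 and H2-Eb1 together and for 7 lists of mature cell markers. Each point is 1 sample, its shape gives the replicate number, bars are means of 3 samples, and the dotted line parts the separately normalised LSK and CMP tables; B6-O replicate 3 and CMP F1-P replicates 2 and 3 are high in both class II and neutrophil panels.

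The level of each member was compared with the others per kilobase of annotated exon. In B6-Y LSK, Cd74 led with 131 ± 54.5 CPM per kilobase (SD, n = 3). H2-Ob followed with 34.6 ± 4.95, H2-DMa with 29.2 ± 7.12, H2-Ab1 with 24.5 ± 5.01 and H2-Eb1 with 16.7 ± 3.71 CPM per kilobase. Ciita was lowest with 0.785 ± 0.216 CPM per kilobase. From H2-Ob down to H2-DMb2, the ranges of mean ± SD of neighbours in this order overlapped, and Cd74 and Ciita stood clear at the ends.

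The order was another in F1-P LSK. Cd74 led again with 1027 ± 395 CPM per kilobase (SD, n = 3), and H2-Eb1 with 31.0 ± 6.10 and H2-Ab1 with 28.2 ± 5.26 followed within each other's SD. H2-Aa was at 12.7 ± 1.53, H2-DMa at 11.8 ± 2.73 and H2-Ob at 8.19 ± 3.25 CPM per kilobase, again with overlapping SD ranges. H2-DMb1 was at 1.45 ± 0.232 and Ciita at 0.848 ± 0.0416 CPM per kilobase, the 2 lowest, with no overlap between them.

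In F1-L CMPs, H2-DMa and not Cd74 had the highest level, 14.9 ± 3.43 CPM per kilobase (SD, n = 3), while Cd74 was at 5.98 ± 2.92. The other members were at 3.26 ± 1.31 CPM per kilobase for H2-Oa or below, with Ciita at 0.139 ± 0.0486. The ratio of H2-DMa to H2-Ab1 within a sample, which needs no scaling between tables, was 0.292 to 0.662 per kilobase over the 6 F1 LSK samples and 1.40 to 7.88 over the 6 F1 CMP samples, with no overlap. The plot of members by sample shows this as similar H2-DMa levels in F1 LSK and CMP beside far lower classical chains in CMP.

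**Figure D2:**
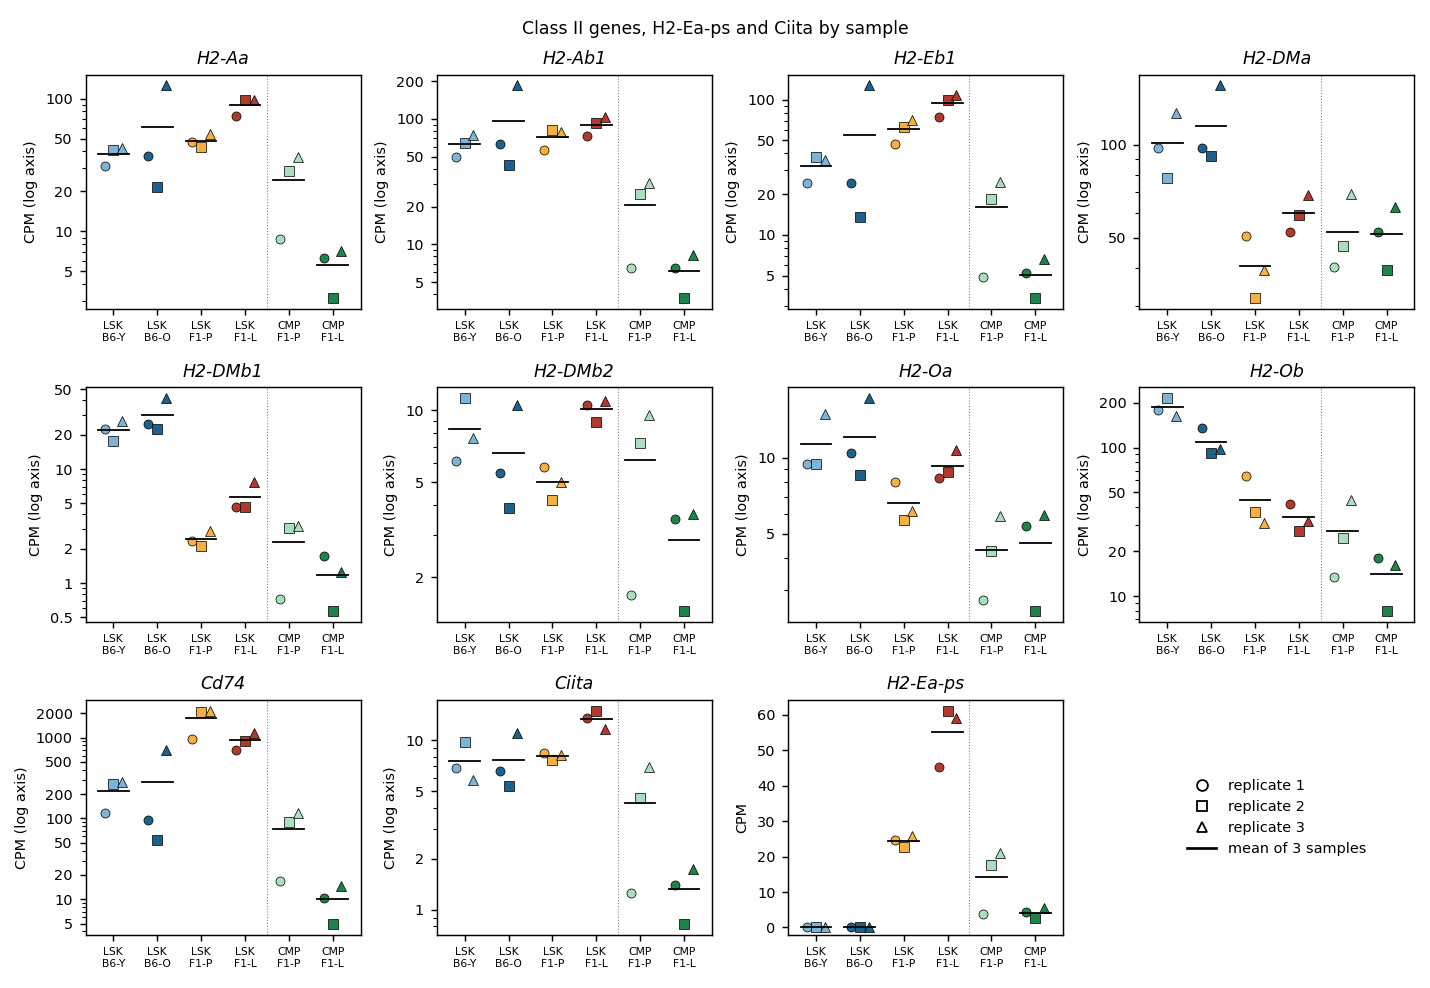
CPM of the 10 members on log axes and of H2-Ea-ps on a linear axis. Each point is 1 sample, its shape gives the replicate number, bars are means of 3 samples, and the dotted line parts the separately normalised LSK and CMP tables; H2-Ea-ps is at 0 in all 6 C57BL/6 samples and H2-DMb1 is lower in every F1 LSK sample than in every C57BL/6 sample.

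The first comparison asked how the members differed between strains at matched age. Calls were made with limma on log2(CPM + 1) at an adjusted p of at most 0.05 (Benjamini-Hochberg over all genes tested) and a fold change above 1.5, and fold changes are on that scale, which understates the change of low genes. In F1-P against B6-Y LSK, 5 of 10 members were called, against 16.2% of all 14380 genes tested, 2 of them higher against 10% and 3 lower against 6.18%. The 2 higher were Cd74 and H2-Eb1, and the 3 lower were H2-DMa, H2-DMb1 and H2-Ob. In F1-L against B6-O, 3 of 10 were called, the same H2-DMa, H2-DMb1 and H2-Ob, all lower, against 11.6% of 14381 genes called and 3.75% called lower. Groups did not overlap for 3 higher and 5 lower members in the younger pair, against 17.4% and 18.1% of genes, and for 2 higher and 3 lower members in the older pair, against 17.5% and 20% of genes. The median log2 difference of the members was −0.24 in the first comparison and 0.39 in the second, against −0.04 and −0.03 over all genes tested.

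Cd74, the invariant chain, on chromosome 18 at 60803848 to 60812652, had the highest level of the members in F1 LSK. It was at 961, 2075 and 2139 CPM in F1-P and at 705, 918 and 1155 CPM in F1-L. In B6-Y it was at 115, 267 and 280 CPM, and in B6-O at 94.997, 53.3 and 703 CPM. Every F1 sample was above every C57BL/6 sample, though B6-O replicate 3 came close to the lowest F1-L sample. The log2 difference of F1-P from B6-Y was 2.98 ± 0.42 (SE, limma adjusted p = 0.00287). In F1-L against B6-O it was 2.56 ± 0.86 and was not called (limma adjusted p = 0.107). Without B6-O replicate 3 it was 3.65 and was called (limma adjusted p = 0.000816). The plasma cell marker sums above had the same high and low strains and the same high sample in B6-O, and within F1-P the same low replicate 1. Other markers were also higher in F1: 4 of 6 T cell markers and the B cell markers Cd79a and Cd79b were called higher in F1-P than in B6-Y, and 2 of 6 T cell, 1 of 10 B cell (Cd79a) and 3 of 10 monocyte and macrophage markers (Ly6c2, C1qa and Ccr2) in F1-L than in B6-O. The part of these cells in the Cd74 result was not tested.

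H2-Eb1, the I-E β chain, was at 47.1, 63.2 and 70.3 CPM in F1-P and at 74.8, 98.7 and 108 CPM in F1-L. It was at 24.2, 37.6 and 35.5 CPM in B6-Y, below every F1-P sample. In B6-O it was at 24.02, 13.5 and 128 CPM, so that replicate 3 was above every F1 sample. The log2 difference of F1-P from B6-Y was 0.88 ± 0.22 (SE, limma adjusted p = 0.0287). The call was lost without F1-P replicate 2, F1-P replicate 3, B6-Y replicate 1 or B6-Y replicate 3, and the limma adjusted p over the 6 fits that left out 1 sample ranged from 0.0200 to 0.118. In F1-L against B6-O the difference was 1.38 ± 0.73 and was not called (limma adjusted p = 0.265), and without B6-O replicate 3 it was 2.30 and called (limma adjusted p = 0.00275).

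H2-Aa and H2-Ab1, the 2 chains of I-A, were not called in either comparison of all samples. H2-Ab1 was at 56.9, 81.2 and 79.2 CPM in F1-P against 49.5, 63.9 and 75.1 CPM in B6-Y, and the groups overlapped. Its log2 difference was 0.20 with a 95% interval of −0.26 to 0.67. H2-Aa was at 47.2, 42.9 and 54.4 CPM in F1-P against 31.1, 40.8 and 42.2 CPM in B6-Y, without overlap, and differed by 0.34 with an interval of −0.04 to 0.72. In F1-L, H2-Aa was at 74.3, 97.8 and 97.4 CPM against 37.3, 21.5 and 126 CPM in B6-O. Without B6-O replicate 3, H2-Aa differed by 1.62 and was called (limma adjusted p = 0.00753). Leaving that library out raised the members called in F1-L against B6-O from 3 to 8, against 16.2% of the genes then tested, with H2-Ab1 and H2-Oa as the 2 not called.

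H2-DMb1, a β chain of the peptide editor, had the largest lower difference of the members. It was at 2.35, 2.10 and 2.87 CPM in F1-P and 4.69, 4.61 and 7.64 CPM in F1-L. In B6-Y it was at 22.6, 17.8 and 26.3 CPM and in B6-O at 25.0, 22.5 and 42.0 CPM. Each F1 sample was lower than each C57BL/6 sample, and 36 to 170 reads lay behind the F1 values. The log2 difference was −2.74 ± 0.20 in the younger pair (SE, limma adjusted p = 0.000129), a 6.70-fold difference, and −2.19 ± 0.29 in the older pair (limma adjusted p = 0.00428).

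H2-DMb2, its near copy, was not called in either pair of all samples. It was at 5.81, 4.20 and 5.004 CPM in F1-P against 6.11, 11.2 and 7.64 CPM in B6-Y, without overlap, and at 10.5, 8.95 and 10.9 CPM in F1-L against 5.45, 3.88 and 10.6 CPM in B6-O. Leaving out 1 sample gave log2 differences of −0.78 to −0.39 in the younger pair (limma adjusted p 0.114 to 0.387). In the older pair it gave 0.36 to 0.98 (limma adjusted p 0.0185 to 0.501), and without B6-O replicate 3 H2-DMb2 was called higher. Over both ages, where these opposite estimates are averaged, its log2 difference was 0.01 with a 95% interval of −0.45 to 0.47. The sum of both genes was 6.30 to 8.16 CPM in F1-P and 28.7 to 33.9 CPM in B6-Y, and 13.6 to 18.6 CPM in F1-L and 26.4 to 52.6 CPM in B6-O, so the strains did not overlap when reads of the 2 copies were pooled.

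H2-DMa, the α chain that pairs with either, was at 50.5, 31.9 and 39.4 CPM in F1-P against 97.5, 78.1 and 127 CPM in B6-Y. It was at 52.2, 59.2 and 68.5 CPM in F1-L against 97.2, 91.8 and 156 CPM in B6-O. All F1 samples were below all C57BL/6 samples. The log2 difference was −1.29 ± 0.22 in the younger pair (SE, limma adjusted p = 0.00673) and −0.89 ± 0.22 in the older pair (limma adjusted p = 0.0445). The older call was lost when any 1 of F1-L replicates 1 to 3 or B6-O replicates 1 and 2 was left out, and the limma adjusted p over the 6 such fits ranged from 0.0197 to 0.178. H2-DMa overlaps Brd2 on the opposite strand in the annotation, and without strand their reads cannot be told apart there. Opposite-strand overlaps are also annotated for H2-Eb1, with Gm20513, and for H2-Oa, with BC051537, under the same limit.

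H2-Ob, the β chain of the H2-DM inhibitor, was at 64.0, 37.0 and 31.2 CPM in F1-P against 179, 215 and 163 CPM in B6-Y. It was at 42.0, 27.4 and 32.3 CPM in F1-L against 136, 92.0 and 98.1 CPM in B6-O, and the 6 F1 samples lay below the 6 C57BL/6 samples. The log2 difference was −2.11 ± 0.26 in the younger pair (SE, limma adjusted p = 0.00140), 4.31-fold, and −1.65 ± 0.21 in the older pair (limma adjusted p = 0.00345). H2-Oa, its α chain partner, was at 5.66 to 7.997 CPM in F1-P against 9.45 to 15.0 CPM in B6-Y. Its log2 difference of −0.68 ± 0.23 was not called (limma adjusted p = 0.0855). In F1-P against B6-Y, markers of other cells were called lower beside these 3 members. They included 4 of 8 conventional dendritic cell markers (Clec10a, Cd209a, Flt3 and Clec9a), 4 of 7 plasmacytoid dendritic cell markers (Cox6a2, Runx2, Irf8 and Siglech, with Ccr9 and Ly6d higher), 1 of 10 monocyte and macrophage markers (Cx3cr1, with Ly6c2 higher) and 4 of 8 progenitor markers (Hlf, Cd34, Meis1 and Flt3, with Ly6a higher). In F1-L against B6-O, where H2-DMa, H2-DMb1 and H2-Ob were again lower, limma called none of the dendritic cell markers (3 conventional and 1 plasmacytoid at an unadjusted p under 0.05). There 5 conventional markers were higher and 3 lower in the mean, with a median log2 difference of 0.27. Of the plasmacytoid markers 5 were higher and 2 lower, with a median of 0.70. Among the progenitor markers, Hlf, Cd34 and Meis1 were called lower and Ly6a higher. Their part in the class II result was not tested. Unlike H2-DMb1, which was high in B6-O replicate 3, H2-Ob was not highest in that library.

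Ciita, the transactivator, lies on chromosome 16 at 10480059 to 10528418, where its annotation overlaps Dexi on the opposite strand. The strains overlapped in the younger animals. It was at 8.41, 7.64 and 8.21 CPM in F1-P against 6.85, 9.79 and 5.81 CPM in B6-Y, a log2 difference of 0.13 with a 95% interval of −0.36 to 0.61. In the older animals it was at 13.6, 14.9 and 11.6 CPM in F1-L against 6.60, 5.37 and 10.97 CPM in B6-O, higher without overlap. The difference of 0.78 ± 0.27 was not called (SE, limma adjusted p = 0.112), and without B6-O replicate 3 it was 1.04 and called (limma adjusted p = 0.0117). Over both ages, 4 of 10 members were called, Cd74 higher with 2.77 ± 0.53 and H2-DMa, H2-DMb1 and H2-Ob lower with −1.09 ± 0.17, −2.47 ± 0.18 and −1.88 ± 0.18, against 19% of 15084 genes called, 12% higher and 7.05% lower. The same 4 had no overlap between the 6 F1 and the 6 C57BL/6 samples, 1 higher against 9.53% of genes and 3 lower against 5.81%. Leaving out 1 sample gave 4 to 6 members called over both ages, beside 2421 to 3120 of all genes. In these fits H2-Eb1 was at 0.80 to 1.59 (limma adjusted p 7.99e-05 to 0.124). H2-Aa was at 0.35 to 0.98 (limma adjusted p 0.000656 to 0.328). Both were highest without B6-O replicate 3.

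**Figure D3:**
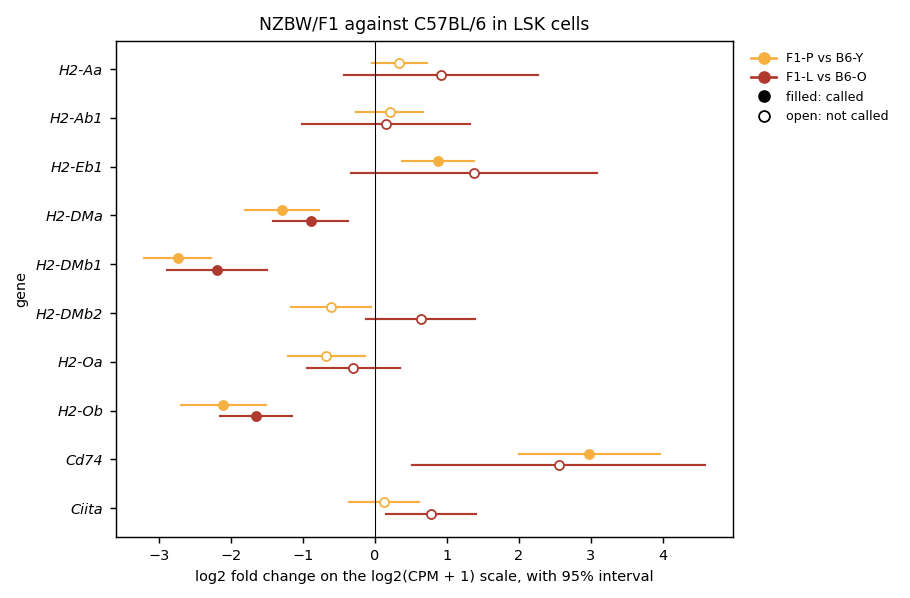
Log2 fold change of F1 over C57BL/6 LSK on the log2(CPM + 1) scale for each member, with the 95% interval of limma, in younger (F1-P vs B6-Y) and older (F1-L vs B6-O) animals. Filled points were called; H2-DMa, H2-DMb1 and H2-Ob are filled and below 0 in both, and the intervals of the older pair are widest for Cd74 and H2-Eb1.

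H2-Ea-ps, the I-E α chain locus, was read as a relative outside the members. It had 0 reads in each of the 6 C57BL/6 LSK samples. It was at 24.8, 22.7 and 25.9 CPM in F1-P and 45.2, 61.1 and 59.2 CPM in F1-L, from 389 to 1536 reads. Against a floor of 3 reads per C57BL/6 library, F1-P was at least 247-fold higher than B6-Y and F1-L at least 574-fold higher than B6-O. The ratio of H2-Ea-ps to H2-Eb1, the 2 chains of I-E, was 0.674 to 1.16 per kilobase in the 6 F1 LSK samples and 1.45 to 1.80 in the 6 F1 CMP samples. H2-Eb2, a second I-E β gene, was at 5.15 to 10.1 CPM in F1-P and 1.89 to 4.37 CPM in B6-Y, and over both ages it was called higher with 0.84 ± 0.20 (SE, limma adjusted p = 0.00841).

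The genes of the block did not share 1 direction. Between H2-Oa and H2-Ea-ps on chromosome 17 the LSK table held 17 genes, all tested. Of the 8 members there 0 were called higher and 3 lower over both ages, and of the 9 other genes 3 were called higher and 0 lower, against 12% and 7.05% of all genes. The 3 higher were H2-Ea-ps, H2-Eb2 and Gm15821. The class I loading genes that sit between H2-DMb1 and H2-Ob were not called, with log2 differences of −0.33 ± 0.10 for Tap1, whose adjusted p of 0.0246 passed without the fold minimum, −0.27 ± 0.12 for Tap2, −0.16 ± 0.14 for Psmb9 and 0.04 ± 0.17 for Psmb8. H2-DMb1 and H2-Ob, both lower in F1, lie on either side of these genes.

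Ratios between members within 1 sample do not depend on scaling between libraries, and 5 of them were compared between the 6 F1 and the 6 C57BL/6 LSK samples by a two-sided exact permutation test, adjusted over the 5. The smallest p this design allows is 0.00216. The ratio of H2-DMb2 to H2-DMb1 per kilobase was 1.38 to 2.38 in F1 and 0.166 to 0.609 in C57BL/6, a 6.96-fold difference (exact p = 0.00216, adjusted 0.00361). In the 6 F1 CMP samples it was 1.95 to 2.92, on the F1 side, so F1 samples of both cell types lay above the C57BL/6 LSK samples. No C57BL/6 CMPs were profiled here.

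The ratio of Cd74 to the 3 classical chains was 4.86 to 16.4 in F1 LSK and 1.09 to 2.89 in C57BL/6, a 4.41-fold difference (exact p = 0.00216, adjusted 0.00361). In F1 CMP it was 0.733 to 2.02, below every F1 LSK sample and within the range of C57BL/6 LSK or below it. The ratio of H2-Eb1 to H2-Ab1 was 1.03 to 1.42 in F1 LSK and 0.420 to 0.908 in C57BL/6, a 1.97-fold difference (exact p = 0.00216, adjusted 0.00361). That of H2-Aa to H2-Ab1 was 0.357 to 0.718 in F1 and 0.341 to 0.458 in C57BL/6, with overlap (difference 0.46 log2, exact p = 0.0281, adjusted 0.0352), and the p rose to 0.0563 when F1-P replicate 1, any F1-L replicate or B6-O replicate 2 was left out. The higher values were those of F1-L, at 0.637 to 0.718, while F1-P, at 0.357 to 0.561, overlapped B6-Y, at 0.380 to 0.431. The ratio of H2-O to H2-DM differed by −0.17 log2 and was within the spread (exact p = 0.545).

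**Figure D4:**
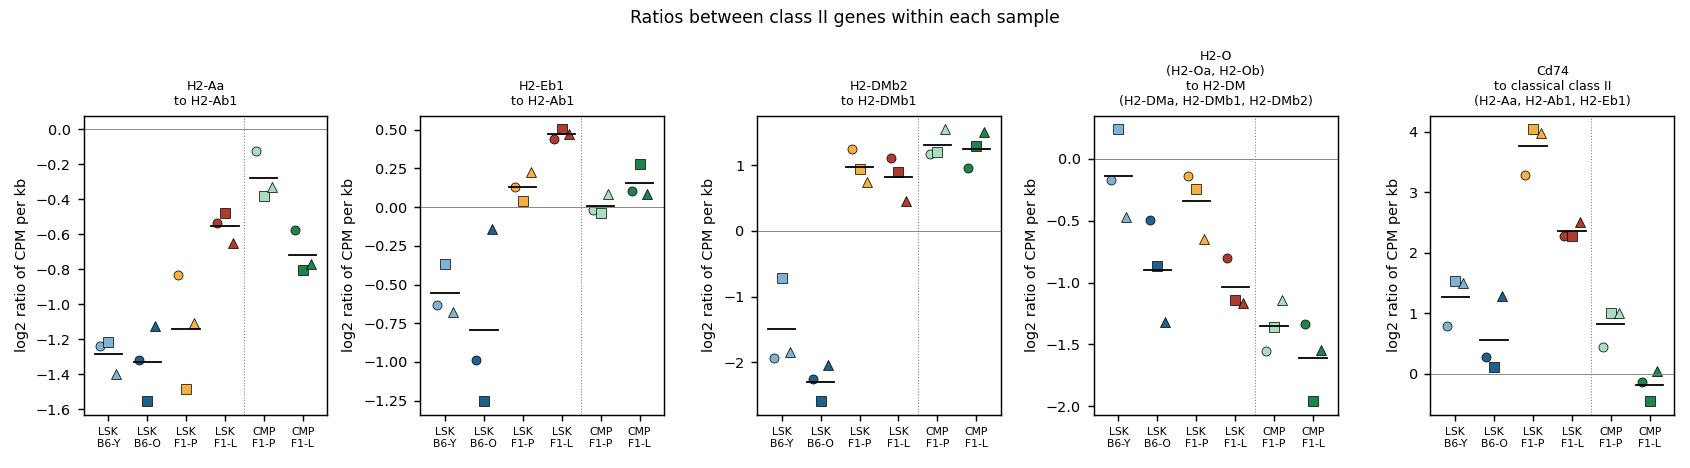
Log2 ratios of CPM per kilobase between members within each sample. Each point is 1 sample, its shape gives the replicate number, bars are means of 3 samples, and the dotted line parts LSK from CMP; H2-DMb2 to H2-DMb1 is above 0 in every F1 sample of both cell types and below 0 in every C57BL/6 sample.

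The second comparison asked what differed between F1-L and F1-P LSK. None of the 10 members was called by limma, as was 0.0279% of all genes (4 of 14332), and edgeR's quasi-likelihood test on recovered reads, which called 0.0209% of genes, called none either. At an unadjusted p under 0.05 there were 7 members, all higher in F1-L, against 12.8% of all genes. The same 7 had no overlap between the groups, against 10.4% of genes that were higher without overlap. They were H2-Aa, H2-Eb1, H2-DMa, H2-DMb1, H2-DMb2, H2-Oa and Ciita. The median log2 difference of the 10 members was 0.60, against −0.01 over all genes tested. On the recovered reads, H2-Aa, H2-DMb1, H2-DMb2 and Ciita were called higher by the likelihood ratio form of edgeR, beside 4.58% of all genes, and by DESeq2, beside 5.13%.

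The largest estimate was that of H2-DMb1, 0.93 ± 0.22 (SE, limma adjusted p = 0.189), followed by H2-DMb2 with 0.89 ± 0.16 (adjusted p = 0.172) and H2-Aa with 0.88 ± 0.15 (adjusted p = 0.172). Ciita differed by 0.65 ± 0.14 and H2-Eb1 by 0.64 ± 0.19. H2-Ea-ps, the chain that completes I-E, differed by 1.13 ± 0.14 (limma adjusted p = 0.116) and was higher in all 3 F1-L samples than in any F1-P sample. H2-Eb2, the other relative read, was lower in F1-L with −0.62 and was not called. It was at 3.48 to 4.93 CPM in F1-L and 5.15 to 10.1 CPM in F1-P, without overlap. Among the members, Cd74 was lower in F1-L in its estimate, −0.84 ± 0.37 (limma adjusted p = 0.405), with F1-P replicate 1 between the F1-L values. H2-Ob, with −0.32 ± 0.28, and H2-Ab1, with 0.30 ± 0.18, overlapped between the groups.

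The ratio of Cd74 to the classical chains followed, with 9.73, 16.4 and 15.7 in F1-P and 4.86, 4.86 and 5.65 in F1-L. The plasma cell marker sums given above had the same order, lower in every F1-L sample than in every F1-P sample. The neutrophil marker sum was higher in every F1-L sample, with 277, 486 and 1193 CPM in F1-P and 11426, 4562 and 1797 CPM in F1-L, led by S100a9 in each sample. All 8 neutrophil markers had an unadjusted p under 0.05, with none called. Of 10 monocyte and macrophage markers 8 had a higher mean log2 level in F1-L and 6 an unadjusted p under 0.05, with a median of 1.32 and none called, while their sum, led by Ly6c2 in F1-P, overlapped between the groups (499, 821 and 999 CPM in F1-P and 2085, 1005 and 983 CPM in F1-L). Of 8 conventional dendritic cell markers tested 6 were higher in the mean and 2 had an unadjusted p under 0.05. Of 10 B cell markers 3 had a higher and 7 a lower mean log2 level in F1-L, 5 of the 10 had an unadjusted p under 0.05 and none was called. Their log2 differences ran from −1.69 to 1.55, the highest being that of Cd22. The part of these cells in the class II result was not tested.

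In C57BL/6 LSK the same ages were compared without disease. None of the 10 members was called between B6-O and B6-Y, as in 0% of 14005 genes, and 1 member, H2-Ob, had an unadjusted p under 0.05, against 6.62% of genes. Neither edgeR test called a member. H2-Ob was the only member whose groups did not overlap, lower in every B6-O sample, against 5.57% of genes. It differed by −0.78 ± 0.20 (SE, limma adjusted p = 0.353). Markers of class II cells were also lower in the mean, 8 of 9 B cell markers tested, 7 of 7 plasmacytoid and 7 of 7 conventional dendritic cell markers, with 4, 4 and 2 at an unadjusted p under 0.05 and none called. So were 9 of 10 monocyte and macrophage and 8 of 8 plasma cell markers, with 1 and 2 at that p and none called. All 8 neutrophil markers were higher in the mean, with 0 at that p. Of 8 progenitor markers 6 were higher and 2 lower, 4 of the 8 at that p and none called. The part of these cells in the H2-Ob result was not tested. The intervals were wide, with B6-O replicate 3 far above the other B6-O samples: H2-Aa differed by 0.31 with a 95% interval of −1.01 to 1.63, and H2-Eb1 by 0.13 with −1.55 to 1.81. Without that library the estimates turned negative for both, −0.40 for H2-Aa and −0.79 for H2-Eb1, and neither was called.

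Whether the age difference itself differed between the strains was tested as an interaction. None of the 10 members was called by limma, as in 0% of 15084 genes, and 1 had an unadjusted p under 0.05, H2-DMb2 with 1.24 ± 0.42 (SE, limma adjusted p = 0.976), against 3.92% of genes. The interaction for Ciita was 0.65 with a 95% interval of −0.10 to 1.40. The age differences in F1 were therefore not shown to differ from those in C57BL/6.

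**Figure D5:**
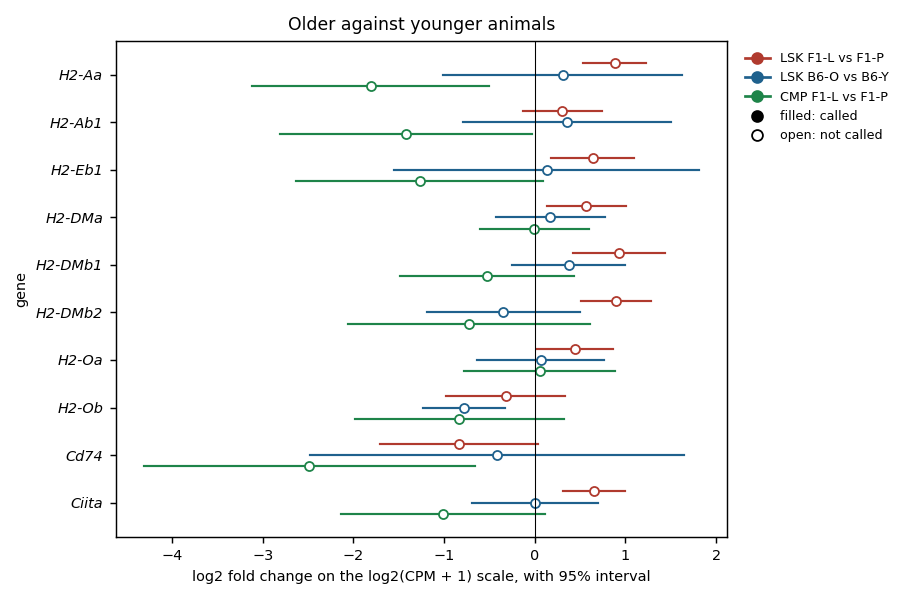
Log2 fold change of older over younger animals on the log2(CPM + 1) scale for each member, with the 95% interval of limma, in F1 LSK, C57BL/6 LSK and F1 CMP. All points are open because no member was called; F1 LSK lies above 0 for 8 of the 10 members and F1 CMP below 0 for 9 of the 10.

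The third comparison asked the same of CMPs from F1-L and F1-P. None of the 10 members was called by limma, as was 0.00774% of genes (1 of 12926), and 3 had an unadjusted p under 0.05, Cd74, H2-Aa and H2-Ab1, all lower, against 9.8% of genes. On recovered reads Cd74 and H2-Aa were called lower by the likelihood ratio form of edgeR, beside 2.38% of genes, and by DESeq2, beside 2.72%, while the quasi-likelihood form called no member. Groups did not overlap for 2 members, Cd74 and H2-Aa, against 6.57% of genes that were lower without overlap. The median log2 difference of the members was −0.92, against 0.04 over all genes tested.

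Cd74 in CMP was at 16.7, 90.3 and 116 CPM in F1-P and 10.5, 4.95 and 14.7 CPM in F1-L, a log2 difference of −2.49 ± 0.76 (SE, limma adjusted p = 0.422). H2-Aa was at 8.79, 28.4 and 36.3 CPM in F1-P and 6.37, 3.15 and 7.17 CPM in F1-L, −1.81 ± 0.54 (limma adjusted p = 0.413). Ciita was at 1.25, 4.55 and 6.93 CPM in F1-P and 1.41, 0.826 and 1.74 CPM in F1-L, from 16 to 177 reads. In each of these genes F1-P replicate 1 was close to the F1-L samples, and F1-P replicates 2 and 3 were high. H2-DMa overlapped between the groups. It was at 40.1, 47.0 and 69.1 CPM in F1-P and 52.1, 39.3 and 62.9 CPM in F1-L, a difference of 0.00 with an 95% interval of −0.61 to 0.60.

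Replicates 2 and 3 of F1-P are the CMP samples with the raised B cell, neutrophil, and monocyte and macrophage marker sums. Their plasma cell marker sums were 229 and 309 CPM against 90.2 CPM in F1-P replicate 1. Their T cell marker sums were 13.2 and 18.3 CPM against 3.07 CPM. Plasmacytoid dendritic cell marker sums were 421 and 750 CPM against 304 CPM. In F1-L, 6 of 6 plasma cell and 7 of 7 plasmacytoid dendritic cell markers tested were lower in the mean. Of each list 3 had an unadjusted p under 0.05 and none was called. So were 8 of 8 B cell, 8 of 8 neutrophil and 10 of 10 monocyte and macrophage markers tested, with 6, 8 and 1 at that p and none called. Their median log2 differences were −2.41, −4.26 and −0.90. Of 4 conventional dendritic cell markers 3 were lower, and of 8 progenitor markers 5 were higher and 3 lower. Without F1-P replicate 1, 5 members were called lower, Cd74, Ciita, H2-Aa, H2-Ab1 and H2-Eb1, against 3.4% of the genes then tested. Without F1-P replicates 2 and 3 together, a choice made after seeing the data, Cd74 was at −0.79 and Ciita at 0.03. That fit leaves 1 F1-P sample, assumed to vary like the others, so no calls are read from it. The part of these cells in the class II result was not tested.

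The other genes of the pathway were read from lists. None of 7 factors of the class II promoter (Rfx5, Rfxap, Rfxank, Nfya, Nfyb, Nfyc and Creb1), which bind the X and Y boxes, was called by limma in any of the comparisons between groups, with 0 to 2 of the 7 at an unadjusted p under 0.05 in each. In F1 against C57BL/6 LSK over both ages, 4 of 7 antigen processing genes were called higher and 0 lower, beside 12% of genes called higher. Ctss, the cathepsin that trims the invariant chain, differed by 2.16 ± 0.31 (SE, limma adjusted p = 0.000282). Ifi30, the endosomal thiol reductase GILT, differed by 1.25 ± 0.30, Lgmn, an endosomal protease, by 1.18 ± 0.18, and Ctsb by 0.66 ± 0.17. The median of the 7 was 0.66, against −0.03 over all genes. Ctss was at 201, 468 and 468 CPM in F1-P, with the same low replicate 1 as Cd74 and the plasma cell markers.

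Of 7 genes of the interferon gamma axis, 1 was called in the same comparison, against 19% of all genes, Socs1, the feedback inhibitor, higher with 1.04 ± 0.17 (SE, limma adjusted p = 0.000636). Irf1, which acts on a Ciita promoter, differed by 0.01 ± 0.13 and was not called. In F1-L against F1-P LSK none of the 7 was called by limma, 1 of them, Irf1, had an unadjusted p under 0.05 and was lower in F1-L with −0.30 ± 0.11, against 12.8% of all genes at that p, and the list median was 0.09. March8, a ubiquitin ligase of the family that removes class II from the surface, was called higher over both ages with 0.74 ± 0.13. March1, the member of that family best known for class II turnover, was not called over both ages and was called lower in F1-P than in B6-Y with −1.16 ± 0.32 (SE, limma adjusted p = 0.0442). In F1-L against B6-O its difference was 1.51 ± 0.55 and was not called (limma adjusted p = 0.127). It was at 0.907, 1.52 and 2.77 CPM in F1-P and 16.3, 6.04 and 9.12 CPM in F1-L, without overlap, and the difference of 2.03 ± 0.38 was not called (limma adjusted p = 0.172). Among 3 costimulatory genes Cd40 was called higher over both ages with 1.33 ± 0.31, and Cd80 and Cd86 were not called. In F1-P against B6-Y, Cd40 was called higher with 1.67 ± 0.37 and Cd86 lower with −0.94 ± 0.23.

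Genes with a pattern like the members were named by Pearson's r of log2(CPM + 1), among 11321 LSK genes with a mean of at least 5 CPM. Over the 12 LSK samples, the genes most like the mean of H2-Aa, H2-Ab1, H2-Eb1 and Cd74 were H2-D1 (r = 0.965), Slpi (0.957), H2-Q4 (0.949), Cyba (0.947) and Mapk12 (0.943). H2-D1 and H2-Q4 are class I genes of the same complex. Those most like Ciita were Mtus1 (r = 0.910), Aoah (0.910), Aatk (0.905), Chil1 (0.893) and Xdh (0.888). The 12 points share strain, scaling and the libraries that stood apart. Over the 6 CMP samples, where F1-P replicates 2 and 3 set the pattern, the genes most like the class II mean were Prkcb (r = 0.999), Cd72 (0.998), Nr1h2 (0.998), Nedd9 (0.997) and Ubl3 (0.997). Cd72 is a B cell receptor of the C-type lectin family. Those most like Ciita in CMP were Ypel5, Ptger4, Actr3, Rgs2 and Ccnyl1, with r of 0.997 to 0.999. These correlations are descriptions and carry no p-value.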

How the data were processed

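RNA of sorted LSK and CMP cells was sequenced from TruSeq libraries. The authors aligned reads to mm10 with STAR 2.6, counted genes with HTSeq, scaled with edgeR and deposited CPM. The deposited values are a signal of scaled CPM and not plain CPM, which the design had assumed, since LSK columns summed to 832403 to 1387186. Whole reads were recovered from their steps (100% whole within 0.05 reads). Samples were taken from column names. Genes reaching 1 CPM in 3 or more samples were tested on log2(CPM + 1) with limma 3.58.1 (trend) in R 4.3.3. Each pair of groups had its own fit of only its samples. The difference over both ages and the interaction came from a fit of all LSK samples. Recovered reads went to edgeR 4.0.16 and DESeq2 1.42.0 as alternatives, beside other pseudocounts, filters, scalings and left-out samples. The fits were tested on simulated data. No 2 replicates agreed within sampling noise. Named genes were the members, genes of prepared lists, the 5 best correlated genes per pattern and, outside that rule and chosen after their values were seen, genes of the chromosome 17 interval. The members and lists were chosen with earlier results of these data known. Positions and exon lengths came from GENCODE M21 by gene ID (19770 of 19780 LSK and 18421 of 18428 CMP genes matched), and promoters from RefSeq by symbol. Whether counting used strand is not given in the sources used here.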

Additional observations from a re-analysis of the deposited data

Results flagged for a closer look

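H2-Aa, the I-A α chain, differed between F1-L and F1-P in opposite directions in the 2 cell types. In LSK the log2 difference was 0.88, with all 3 F1-L samples above all 3 F1-P samples, and in CMP it was −1.81, with all 3 F1-L samples below. Neither difference was called by limma, and the difference between the cell types was not tested. In CMP the log2 difference of H2-Aa was −0.64 without F1-P replicates 2 and 3, the libraries with high neutrophil and B cell marker sums. Groups of 3 samples are too small for a test of single outlying samples.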

How the results depend on the processing

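Calls changed with the count model and with single libraries. For F1-L against F1-P, limma called 0 members in either cell type, while the likelihood ratio form of edgeR called 4 in LSK and 2 in CMP, and DESeq2 4 and 2. Leaving out 1 sample gave 2 to 8 members called for F1-L against B6-O (8 without B6-O replicate 3), 0 to 5 in CMP (5 without F1-P replicate 1), 4 to 5 for F1-P against B6-Y, 4 to 6 over both ages and 0 elsewhere. Calls over all genes moved too in these fits. They were 448 to 2285 genes for F1-L against B6-O, 0 to 434 in CMP and 927 to 2229 for F1-P against B6-Y. Over both ages they were 2421 to 3120, and elsewhere 0 to 48. The F1 minus C57BL/6 difference in the log2 ratio of H2-Aa to H2-Ab1 ranged from 0.38 to 0.59. Its exact permutation p was above 0.05 in 5 of the 12 fits that left out 1 sample. Of 1354 alternative member fold changes 54 changed sign, none of them called in either fit, and the cause was not tested. For B6-O against B6-Y, leaving out 1 sample gave −0.40 to 0.85 for H2-Aa, −0.25 to 0.79 for H2-Ab1, −0.79 to 0.79 for H2-Eb1, −0.065 to 0.35 for H2-DMa, −0.20 to 0.27 for H2-Oa, −1.51 to 0.34 for Cd74 and −0.26 to 0.20 for Ciita. In that comparison Cd74 was 0.34 with both edgeR forms and 0.32 with DESeq2, and Ciita was −0.0015 and −1.1e-05 with pseudocounts of 0.1 and 0.5, −0.015 with median of ratios scaling and −0.014 with DESeq2. Leaving out 1 sample gave −0.019 to 0.31 for Ciita in F1-P against B6-Y, −0.29 to 0.76 for H2-Ab1 in F1-L against B6-O, −0.17 to 0.22 for H2-DMa and −0.18 to 0.37 for H2-Oa in CMP. Over both ages it gave −0.042 to 0.48 for H2-Ab1 and −0.12 to 0.19 for H2-DMb2, and for the interaction −0.49 to 0.56 for H2-Ab1, −0.15 to 1.42 for H2-Eb1 and −1.17 to 0.67 for Cd74. With both edgeR forms and DESeq2, H2-Ab1 in F1-L against B6-O was −0.14, −0.14 and −0.080, H2-DMb2 over both ages −0.061, −0.061 and −0.024, and the H2-Eb1 interaction −0.13, −0.13 and −0.10. Without CMP F1-P replicates 2 and 3, an alternative chosen after seeing the data, H2-Eb1 was 0.021, H2-DMa 0.33, H2-DMb2 0.47 and Ciita 0.028. Samples of the same replicate number did not deviate together in every pair. Their r was −0.04 to 0.02 for F1-P with F1-L LSK, against −0.087 to 0.11 for different numbers. In CMP it was −0.45 to 0.62, against −0.78 to 0.76. For F1-P with B6-Y it was 0.057 to 0.32, against −0.34 to 0.12. Whether samples of the same number belong together cannot be told from so few samples, and the main fits left pairing out. A replicate block left each count of members called the same except over both ages, where it called 5 in place of 4, adding H2-Eb1. Over all genes it called 2787 in place of 2331 for F1-P against B6-Y and 1380 in place of 1667 for F1-L against B6-O. No scaling moved the median over all genes by more than 0.1. Depth was low for H2-DMb1 in F1 LSK (36 to 170 reads) and for Ciita in CMP (16 to 177 reads).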
